A study of Mus musculus with 8 samples.

Results

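The subject is 10 genes of the BCL2 family, chosen by name from a list of survival and death genes. Earlier results of these data were known when the genes were chosen. They comprise the pro-survival genes Bcl2, Mcl1 and Bcl2l1, the pore-forming genes Bax and Bak1, and the BH3-only genes Bcl2l11, Bbc3, Pmaip1, Bid and Bad. They are 10 of the 24411 genes in the count tables, and all 10 passed the filter on low counts that left 13177 genes for testing. The 8 RNA-seq libraries were made from wild-type C57BL/6 bone marrow and came in pairs, 2 for each of 4 gates set within the common myeloid progenitors, cells that give rise to granulocytes, monocytes, red cells and megakaryocytes. All 4 populations were KIT+ and CD16/32-. The CD34bright population was CD34bright CD41+ CD9+. The CD41/CD9-negative population was CD34dim CD41- CD9-. The CD48bright and CD48dim populations were both CD34dim CD41+ CD9+ and differed in the surface level of CD48. No treatment, deletion or transgene is named for any of them, and no age of the mice was found in the labels.

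Proteins of the BCL2 family decide whether the outer membrane of the mitochondrion stays intact. BCL2, MCL1 and BCL-XL (encoded by Bcl2l1) hold cells alive by binding pro-death relatives, and BAX and BAK (encoded by Bak1) form the pores through which cytochrome c escapes. The BH3-only proteins BIM (encoded by Bcl2l11), PUMA (Bbc3), NOXA (Pmaip1), BID and BAD sense stress and set these partners against each other. In mouse blood formation, Mcl1 is known as a gene on which stem and progenitor cells depend, and Bcl2 and Bcl2l11 are known for setting the survival of lymphocytes.

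Levels are given as CPM, counts scaled to a common library size after adjustment by the trimmed mean of M-values (TMM). Library totals ran between 7237587 and 20632005 counts. The 2 CD48dim libraries were less alike than those of any other population, with a Spearman correlation across genes of 0.836, against 0.954 to 0.976 in the other 3. Malat1, a nuclear RNA whose share can move with RNA quality, stood at 38950 CPM in CD48dim replicate 2 and at 5004 to 14870 CPM in the other 7 libraries. Its part in the levels of the 10 genes was not tested. Kit was present in all 8 libraries, at 240 to 1226 CPM. Itga2b, which encodes CD41, stood at 2.18 to 2.83 CPM in CD41/CD9-negative libraries and at 64.3 to 155 CPM elsewhere, and Cd48 at 16.9 to 35.8 CPM in CD48dim libraries and at 157 to 246 CPM elsewhere. The labels do not state whether paired libraries stem from different animals or different sorts, and p-values therefore reflect only library-to-library spread, which may be technical. These are bulk samples, in which fewer cells of a type and less RNA per cell cannot be told apart.

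Among the 10 genes, 3 BH3-only genes rose in CD41/CD9-negative cells relative to CD48dim cells. These were Pmaip1, Bcl2l11 and Bid, with log2 fold changes of 6.79 ± 1.05, 2.04 ± 0.44 and 1.40 ± 0.33 (SE, n = 2 libraries each). All 3 calls came from edgeR's quasi-likelihood test with Benjamini-Hochberg adjustment over all tested genes, at adjusted p below 0.05. Over all tested genes, 1.98% were called higher in this comparison and 4.02% in either direction. The median log2 fold change over the 10 genes was 0.83 and over all tested genes -0.06, and 9 of the 10 had a positive value. By edgeR, 0 of the 10 were called in each of the other 5 pairs of populations. Those shares of all genes were 0.842% in CD34bright over CD41/CD9-negative, 0% in CD34bright over CD48bright, 0.577% in CD34bright over CD48dim, 0.212% in CD41/CD9-negative over CD48bright and 0.387% in CD48bright over CD48dim. At an unadjusted p below 0.05, edgeR's test gave 2 of the 10 in CD34bright over CD41/CD9-negative (9.91% of all genes), 1 in CD34bright over CD48bright (1.99%), 3 in CD34bright over CD48dim (19%), 2 in CD41/CD9-negative over CD48bright (7.12%) and 2 in CD48bright over CD48dim (14.6%). The same count was 5 in CD41/CD9-negative over CD48dim, against 19.5% of all genes, and 5 for any difference among the populations, against 16.8%. In those 5 pairs DESeq2 called 2 of the 10 in CD34bright over CD48dim and 1 in CD48bright over CD48dim, and limma-voom called 0. The shares above are edgeR's and are no background for these DESeq2 counts, since DESeq2 called more of all genes for any difference. Only Pmaip1 passed the test for any difference among the 4 populations, with an adjusted p of 0.0379 by edgeR, where 2.44% of all genes did. That call was lost (adjusted p 0.0769 to 0.223, edgeR) without any 1 of the CD34bright, CD41/CD9-negative or CD48bright libraries. It was also lost without both CD48dim libraries, with an adjusted p of 0.109 by edgeR.

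**Figure D1:**
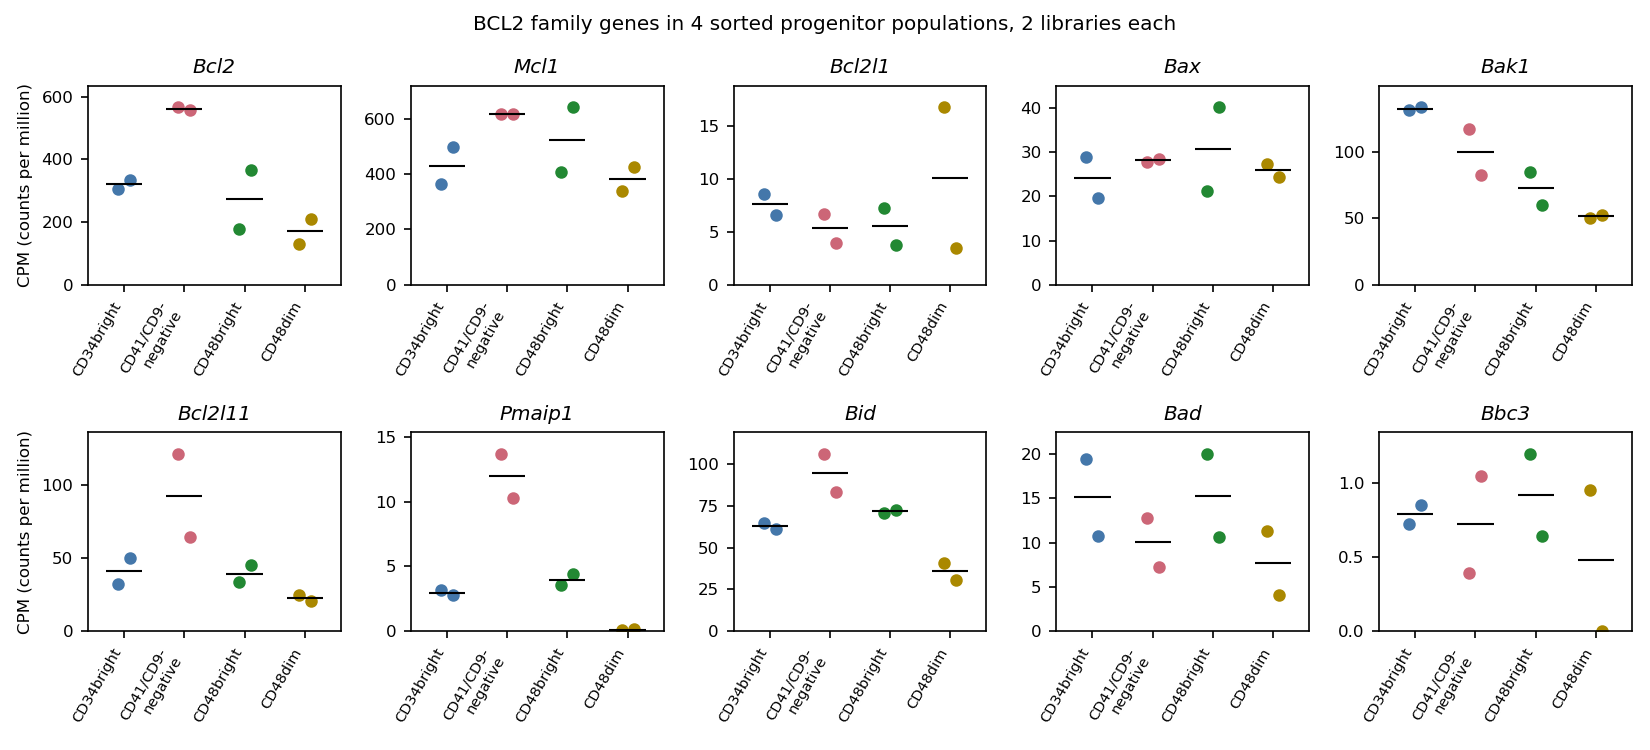
CPM of each of the 10 genes (vertical axes, linear, each with its own scale from 0) in the CD34bright, CD41/CD9-negative, CD48bright and CD48dim populations. Each point is 1 library and each bar the mean of 2 libraries. For Pmaip1 the CD41/CD9-negative libraries sit at 13.7 and 10.2 CPM and the CD48dim libraries at 0.0734 and 0.137 CPM. For Bcl2l1 the populations overlap widely. For Bax they overlap as well, except CD41/CD9-negative and CD48dim, which are set apart by a narrow gap.

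Pmaip1, whose product NOXA binds MCL1 and is induced by p53 in stressed cells, showed the widest range of the 9 genes detected in every library, with a highest level 187 times its lowest. Its level was 3.15 and 2.77 CPM in CD34bright libraries, 13.7 and 10.2 CPM in CD41/CD9-negative libraries, 3.54 and 4.39 CPM in CD48bright libraries, and 0.0734 and 0.137 CPM in CD48dim libraries. The CD41/CD9-negative libraries lay above all others, the CD48dim libraries below all others, and no population overlapped another. Behind these levels stood 61 and 39 counts in CD34bright, 174 and 127 in CD41/CD9-negative, 68 and 48 in CD48bright, and 1 and 1 in CD48dim libraries. With so few counts in CD48dim cells, the fitted log2 fold changes depend on the prior count. The ratio of pooled counts, each divided by its summed TMM-adjusted library sizes, shows the size more directly with its counting error. That ratio was 125 for CD41/CD9-negative over CD48dim (exact Poisson 95% interval 34.4 to 1040), covering counting error only. It was 31.2 for CD34bright over CD48dim (8.42 to 261) and 40.2 for CD48bright over CD48dim (10.9 to 336). By edgeR, Pmaip1 had an adjusted p of 0.00981 in CD41/CD9-negative over CD48dim cells. The log2 fold change was 4.78 ± 1.01 in CD34bright over CD48dim (adjusted p 0.0688, edgeR) and 5.20 ± 1.02 in CD48bright over CD48dim (adjusted p 0.0845, edgeR), neither of which passed. Pmaip1 was called in both pairs with no filter on low counts and with DESeq2, and in CD34bright over CD48dim also with a block for replicate number. Among the 3 populations with more counts, the log2 fold change was -2.01 ± 0.78 in CD34bright over CD41/CD9-negative (adjusted p 0.404, edgeR) and 1.59 ± 0.77 in CD41/CD9-negative over CD48bright (adjusted p 0.753, edgeR).

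Bcl2l11 (chr2:128126038-128162547, plus strand, GRCm38) encodes BIM, a BH3-only protein that binds all the pro-survival proteins and can activate BAX and BAK. It stood at 32.0 and 50.1 CPM in CD34bright libraries, 121 and 64.3 CPM in CD41/CD9-negative libraries, 33.5 and 45.2 CPM in CD48bright libraries, and 24.8 and 20.3 CPM in CD48dim libraries. Both CD41/CD9-negative libraries lay above every other library, though they differed from each other by more CPM than the lower of them exceeded either CD48dim library. In CD41/CD9-negative over CD48dim cells the adjusted p was 0.037 by edgeR, and the call was lost in limma-voom. CD34bright and CD48bright cells overlapped, with means of 41.1 ± 12.8 and 39.4 ± 8.31 CPM (SD, n = 2 each). The log2 fold change of CD34bright over CD41/CD9-negative cells was -1.18 ± 0.43 (adjusted p 0.358, edgeR), and that of CD41/CD9-negative over CD48bright cells was 1.24 ± 0.43 (adjusted p 0.458, edgeR).

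The deposited transcript length of Bcl2l11, a mean over its isoforms weighted by their estimated abundance, also differed between libraries. It was 4264 and 4392 bases in CD34bright, 2902 and 3104 in CD41/CD9-negative, 3787 and 4011 in CD48bright, and 3830 and 3362 in CD48dim libraries. The CD41/CD9-negative libraries had the shortest mean transcript of all 8, and the CD34bright libraries the longest. In the annotation, transcripts of Bcl2l11 with a RefSeq entry are 2301, 2490, 3538 and 5036 bases long and encode 91, 110, 140 and 196 amino acids. The 3 longer products are known as the short, long and extra long forms of BIM. These lengths include untranslated sequence and come from short reads, so they do not give the amount of any one form of the protein. A shorter transcript yields fewer fragments per molecule, and with this length in the model (an alternative chosen after seeing the data) the log2 fold change of Bcl2l11 in CD41/CD9-negative over CD48dim cells was 2.34, with an adjusted p of 0.0236 by edgeR. No test was made of the lengths themselves.

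**Figure D2:**
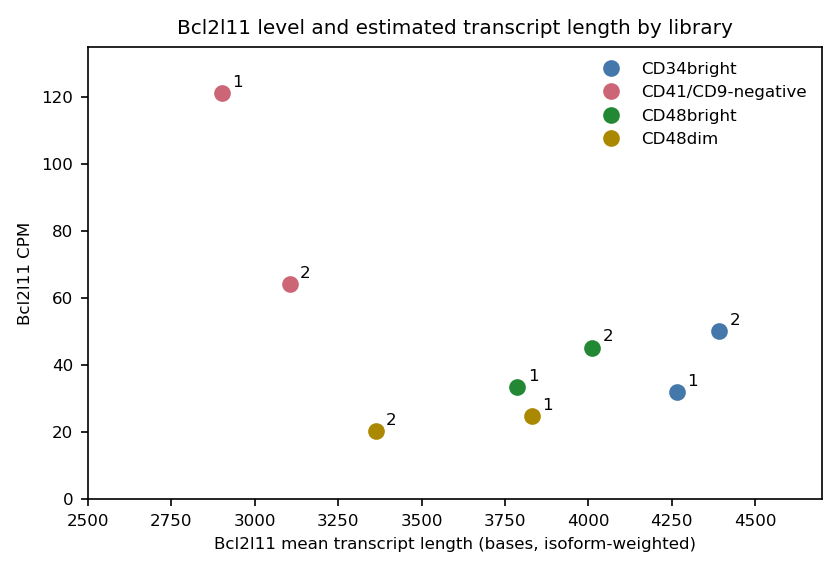
Bcl2l11 in the 8 libraries, with the isoform-weighted mean transcript length in bases on the horizontal axis, which does not start at 0, and the level in CPM on the vertical axis. Each point is 1 library, coloured by population and numbered by replicate. The CD41/CD9-negative libraries lie apart at 2902 and 3104 bases and 121 and 64.3 CPM, and the CD48dim libraries lie lowest at 24.8 and 20.3 CPM.

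Bid (chr6:120891930-120916853, minus strand, GRCm38) encodes a BH3-only protein that caspase-8 cleaves, linking death receptors to the mitochondrion. Its level was 65.0 and 60.9 CPM in CD34bright libraries, 106 and 83.3 CPM in CD41/CD9-negative libraries, 70.6 and 72.8 CPM in CD48bright libraries, and 41.0 and 30.8 CPM in CD48dim libraries. The order of the populations was that of Pmaip1, with no overlap between neighbours. The adjusted p in CD41/CD9-negative over CD48dim cells was 0.0497 by edgeR, just inside the threshold, and the call was lost with scaling by library totals only and in limma-voom. In CD48bright over CD48dim cells the log2 fold change was 1.00 ± 0.33 (adjusted p 0.228, edgeR), and in CD34bright over CD48dim cells 0.81 ± 0.33 (adjusted p 0.23, edgeR). Bid overlaps Bcl2l13 on the opposite strand, and the libraries carry no strand information. The counts of both were of a similar size, 7434 for Bid and 7930 for Bcl2l13 over the 8 libraries, so the level of Bid is uncertain. Bcl2l13 had another pattern, at 92.6 and 88.3 CPM in CD34bright, 69.0 and 52.7 in CD41/CD9-negative, 107 and 38.9 in CD48bright, and 60.3 and 9.07 in CD48dim libraries.

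Within each replicate number, the log2 ratio of CD41/CD9-negative over CD48dim CPM was 7.54 and 6.22 for Pmaip1, 2.29 and 1.66 for Bcl2l11, and 1.37 and 1.44 for Bid. In a fit of the 4 libraries of this pair alone, none of the 3 was called. Leaving out either CD41/CD9-negative library removed all 3 calls, and leaving out any 1 CD34bright or CD48bright library left only that of Pmaip1. Without either CD48dim library, all 3 calls remained and Bcl2 was called as well, but the spread between the CD48dim libraries then no longer entered the fit.

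**Figure D3:**
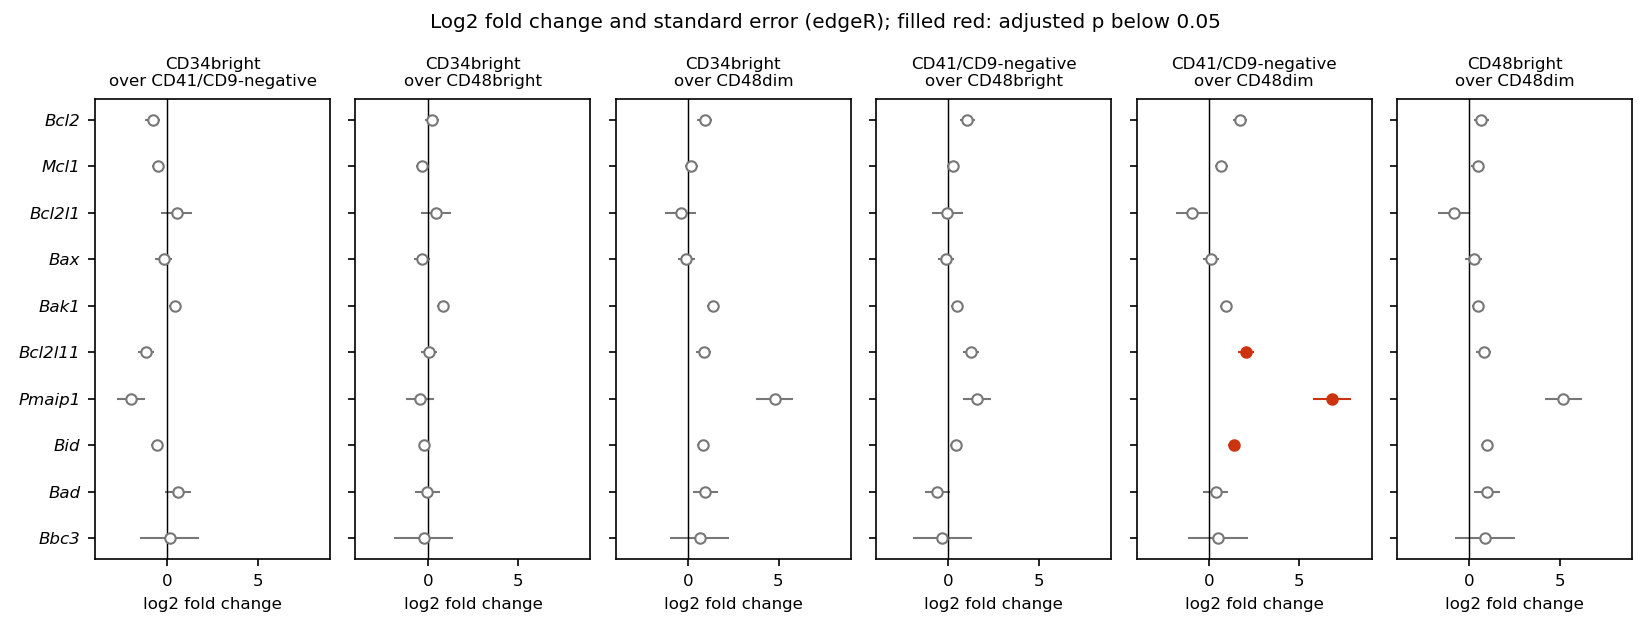
Log2 fold change (horizontal axes) of each of the 10 genes in the 6 pairs of populations, with bars of 1 SE on either side. Points are from edgeR's test on all 8 libraries, and red filled points have an adjusted p below 0.05. The 3 filled points are Bcl2l11 at 2.04, Pmaip1 at 6.79 and Bid at 1.40 in CD41/CD9-negative over CD48dim cells.

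After Pmaip1, the genes Bcl2l11, Bid and Bcl2 had the smallest p of the 10 in CD41/CD9-negative over CD48dim cells by edgeR, and the sequence before their start sites is shown for comparison. Each is the 150 bases (GRCm38.p6) upstream of the gene's start in RefSeq or in the GENCODE annotation, whichever lay further upstream. They are written 5′ to 3′ on the gene's own strand. The windows used for comparison below were placed at RefSeq promoter starts only. RefSeq held promoters for 9 of the 10 genes, and capitals mark matches on either strand of 4 motifs. These were the GC box, spelled GGGCGG, the CCAAT box, the TATA box, spelled TATAAA, and the core of sites for ETS factors, spelled CCGGAA. No 2 matches overlap.
Bcl2, chr1:106714291-106714440, minus strand: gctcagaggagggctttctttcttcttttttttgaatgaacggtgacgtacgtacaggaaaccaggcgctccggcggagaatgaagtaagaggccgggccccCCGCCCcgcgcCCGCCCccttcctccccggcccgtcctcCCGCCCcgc
Bcl2l11, chr2:128125888-128126037, plus strand: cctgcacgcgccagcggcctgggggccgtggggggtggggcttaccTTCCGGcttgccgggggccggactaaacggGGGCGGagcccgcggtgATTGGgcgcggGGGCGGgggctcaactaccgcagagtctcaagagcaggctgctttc
Bid, chr6:120916854-120917003, minus strand: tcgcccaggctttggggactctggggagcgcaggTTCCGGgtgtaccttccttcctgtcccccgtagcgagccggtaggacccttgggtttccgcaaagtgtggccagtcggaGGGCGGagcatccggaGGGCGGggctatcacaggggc
All 3 stretches were rich in G and C, at 65.3% for Bcl2, 73.3% for Bcl2l11 and 67.3% for Bid. The GC box matched 3 times before Bcl2 and 2 times before each of Bcl2l11 and Bid, and 28.6% of 32851 mouse promoter windows of this length hold at least 1 match. The ETS core matched 1 time before Bcl2l11 and 1 time before Bid, against 9.2% of windows, and the CCAAT box 1 time before Bcl2l11, against 24.5%. The TATA box, held by 7.6% of windows, is not in these letters. A match is a description of the sequence and not a measured binding site.

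Bad and Bbc3, the remaining BH3-only genes, passed no test. Bad, whose product is held in check by survival kinases, stood at 19.5 and 10.8 CPM in CD34bright, 12.8 and 7.27 in CD41/CD9-negative, 20.0 and 10.6 in CD48bright, and 11.3 and 4.12 in CD48dim libraries. Replicate 1 was the higher library in every population, and the populations overlapped. Bad overlaps Gpr137 on the opposite strand, with 1468 counts for Bad and 1119 for Gpr137, so its level is uncertain. Bbc3, which encodes the p53 target PUMA, was near the limit of detection, between 0 and 1.20 CPM over the 8 libraries and with 87 counts in all. Its 1 library without a count was CD48dim replicate 2, where 3 counts correspond to 0.412 CPM.

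Of the pro-survival genes, Bcl2 (chr1:106538178-106714274, minus strand, GRCm38) had its highest level in CD41/CD9-negative cells. It stood at 307 and 334 CPM in CD34bright libraries, 567 and 558 CPM in CD41/CD9-negative libraries, 178 and 367 CPM in CD48bright libraries, and 131 and 211 CPM in CD48dim libraries. The CD41/CD9-negative libraries agreed closely and lay above all others, while CD48bright libraries overlapped both CD34bright and CD48dim libraries. The log2 fold change in CD41/CD9-negative over CD48dim cells was 1.72 ± 0.41, and its adjusted p of 0.0533 by edgeR just missed the threshold. With no filter on low counts, with DESeq2, with limma-voom and with a block for replicate number, Bcl2 was called there. In CD41/CD9-negative over CD48bright cells the log2 fold change was 1.05 ± 0.41 (adjusted p 0.558, edgeR), and in CD34bright over CD41/CD9-negative cells -0.81 ± 0.40 (adjusted p 0.581, edgeR).

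Mcl1 encodes a short-lived protein that opposes BIM and BAK, and it was the steadiest of those 9 genes, with a highest level 1.90 times its lowest. Its level was 364 and 496 CPM in CD34bright, 617 and 618 in CD41/CD9-negative, 407 and 640 in CD48bright, and 337 and 426 in CD48dim libraries. Neighbours in the order of the 4 means overlapped. Its log2 fold change was 0.69 ± 0.35 in CD41/CD9-negative over CD48dim cells (adjusted p 0.323, edgeR).

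Bcl2l1, known for the survival of red cell precursors and platelets, was scarce. It was at 8.56 and 6.61 CPM in CD34bright, 6.69 and 3.96 in CD41/CD9-negative, 7.28 and 3.75 in CD48bright, and 16.7 and 3.44 in CD48dim libraries. Its highest and its lowest value came from the same population. The library with 16.7 CPM, CD48dim replicate 1, also had the highest summed level of 7 erythroid markers, 261 CPM, where the other CD48dim library had 40.3 CPM and the remaining 6 libraries had 6.60 to 34.5 CPM. The same library had the highest sum of 10 mature neutrophil markers, 4175 CPM, against 49.9 to 702 CPM in the other 7. The part of these markers in the Bcl2l1 level was not tested.

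Levels of different genes were compared within a library as TPM, a transcript's share of its library corrected for transcript length. Mcl1 had the highest TPM of the 10 genes in all 8 libraries. Of the summed TPM of Mcl1, Bcl2 and Bcl2l1, Mcl1 made up 64.9% and 69.7% in CD34bright, 63.1% and 64.4% in CD41/CD9-negative, 77.8% and 71.8% in CD48bright, and 74.7% and 77.4% in CD48dim libraries. Bcl2 made up 32.8% and 28.9% in CD34bright, 35.9% and 35.0% in CD41/CD9-negative, 20.1% and 27.6% in CD48bright, and 19.8% and 21.2% in CD48dim libraries. The Mcl1 share thus lay lower in both CD34bright and both CD41/CD9-negative libraries than in any CD48bright or CD48dim library. Bcl2l1 made up 0.614% to 5.52% and was highest in CD48dim replicate 1. No test was made of these shares.

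Of the pore-forming genes, Bak1 was highest in CD34bright cells and Bax was even. Bak1 stood at 132 and 134 CPM in CD34bright, 117 and 83.1 in CD41/CD9-negative, 85.1 and 60.1 in CD48bright, and 50.6 and 52.4 in CD48dim libraries. CD34bright libraries lay above and CD48dim libraries below all others, while the other populations overlapped. The log2 fold change was 1.37 ± 0.34 in CD34bright over CD48dim cells, with an adjusted p of 0.0921 by edgeR. It passed with no filter on low counts, with DESeq2 and with a block for replicate number. In CD34bright over CD48bright cells it was 0.87 ± 0.33 (adjusted p 1, edgeR), in a comparison in which edgeR called 0 genes of 13177, DESeq2 33 and limma-voom 0, and 262 genes had an unadjusted p below 0.05 by edgeR.

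Bax was at 28.9 and 19.6 CPM in CD34bright, 27.7 and 28.5 in CD41/CD9-negative, 21.1 and 40.1 in CD48bright, and 27.3 and 24.5 in CD48dim libraries. The CD48bright libraries spanned those of every other population except CD34bright replicate 2. In TPM, the ratio of Bax to Bak1 was 0.618 and 0.415 in CD34bright, 0.672 and 0.958 in CD41/CD9-negative, 0.71 and 1.86 in CD48bright, and 1.51 and 1.31 in CD48dim libraries. Bax thus exceeded Bak1 per length in both CD48dim libraries and in CD48bright replicate 2, and lay below it in the other 5 libraries.

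**Figure D4:**
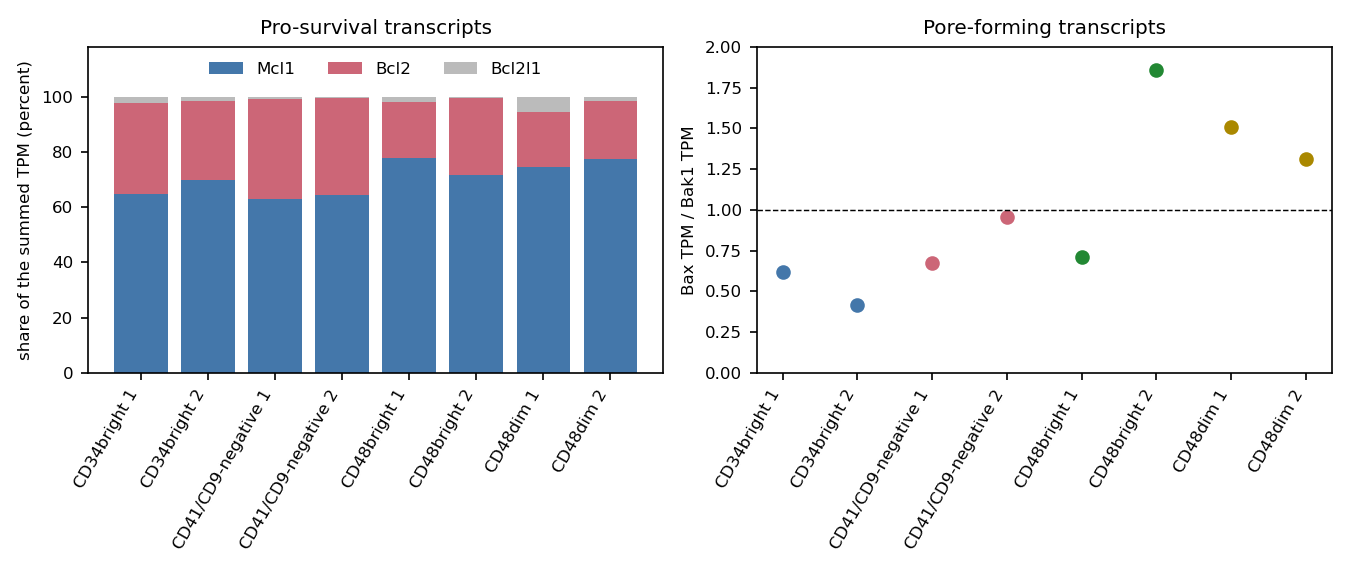
Left, share of the summed TPM of Mcl1, Bcl2 and Bcl2l1 in percent for each of the 8 libraries. Right, ratio of Bax to Bak1 TPM in the same libraries, on a linear axis from 0 with a dashed line where both are equal. The Mcl1 share is 63.1% to 69.7% in CD34bright and CD41/CD9-negative libraries and 71.8% to 77.8% in CD48bright and CD48dim libraries, and the ratio exceeds 1 in 3 libraries.

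In CD41/CD9-negative over CD48dim cells, 7 of the 10 genes had libraries that did not overlap and were higher, which 22.5% of all tested genes also did. They were Bcl2, Mcl1, Bax, Bak1, Bcl2l11, Pmaip1 and Bid, and none of the 10 was lower without overlap, against 21.0% of all genes. For Bax the gap was narrow, with the lower CD41/CD9-negative library at 27.7 CPM and the higher CD48dim library at 27.3 CPM. The list thus held pro-survival, pore-forming and BH3-only genes together. For the BH3-only genes the median log2 fold change was 1.40 over 5 genes, for the pro-survival genes 0.69 over 3 and for the pore-forming genes 0.54 over 2.

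Summed markers of some cell types also differed without overlap between CD41/CD9-negative and CD48dim libraries, while mature neutrophil and T and NK cell sums overlapped. Early lymphoid markers (Il7r, Dntt, Rag1, Rag2 and Flt3) summed to 110 and 94.2 CPM in CD34bright, 2450 and 1640 in CD41/CD9-negative, 114 and 202 in CD48bright, and 69.7 and 55.5 in CD48dim libraries. Rag2 was at 0 in CD48dim replicate 2. Monocyte and dendritic markers (Irf8, Csf1r, Ly86 and Siglech) summed to 254 and 250 CPM in CD34bright, 1738 and 1299 in CD41/CD9-negative, 265 and 318 in CD48bright, and 14.4 and 7.97 in CD48dim libraries, with Siglech at 0 in both CD48dim libraries. The 10 mature neutrophil markers were detected in every library and summed to 4175 and 625 CPM in CD48dim libraries, against 49.9 to 702 CPM elsewhere. In CD34bright over CD48dim cells 1 of the 10 had a positive log2 fold change by edgeR, as did 1 in CD41/CD9-negative over CD48dim cells. Cxcr2 averaged 71.4 CPM in CD34bright, 6.55 in CD41/CD9-negative, 35.4 in CD48bright and 11.2 in CD48dim cells. Mmp8 averaged 15.0 CPM in CD41/CD9-negative and 11.6 in CD48dim cells, and Retnlg 15.7 and 17.9 CPM. Megakaryocyte and platelet markers summed to 5.98 and 7.91 CPM in CD41/CD9-negative libraries, with Pf4, Ppbp and Treml1 at 0, and to 96.2 to 259 CPM elsewhere. These 6 genes include Itga2b, which encodes the CD41 of the sort gate, so the gate bears on this sum. Itga2b alone averaged 2.51 CPM in CD41/CD9-negative, 89.9 in CD34bright, 79.0 in CD48bright and 134 in CD48dim cells. B cell markers, 6 genes, summed to 124 and 112 CPM in CD41/CD9-negative libraries and to 18.4 to 61.7 CPM elsewhere. By edgeR, 0 of these 6 were called in CD41/CD9-negative over CD48dim cells, and 5 had a positive log2 fold change. Vpreb1 averaged 1.48 CPM in CD41/CD9-negative and 2.50 in CD48dim cells. The Cd79b libraries of these 2 populations overlapped, at 23.2 to 38.2 and 0.550 to 38.2 CPM. Mast cell and basophil markers, 4 genes, summed to 67.9 and 58.1 CPM in CD41/CD9-negative libraries and to 405 to 1200 CPM elsewhere. In CD48dim libraries Gata2 made up most of this sum, at 385 to 646 CPM. Cpa3 averaged 481 CPM in CD34bright, 34.1 in CD41/CD9-negative, 385 in CD48bright and 35.6 in CD48dim cells. By edgeR, Gata2, Ms4a2 and Fcer1a were called lower in CD41/CD9-negative over CD48dim cells, and Cpa3 was not called. T and NK cell markers, 5 genes, summed to 340 and 270 CPM in CD34bright, 94.9 and 67.4 in CD41/CD9-negative, 409 and 257 in CD48bright, and 260 and 65.3 in CD48dim libraries. Nkg7 made up most of these sums, with means of 302, 52.5, 322.5 and 162 CPM in the same order. Klrd1 had another pattern, with means of 1.03, 25.0, 5.49 and 0 CPM. It was called higher in CD41/CD9-negative over CD48dim cells by edgeR. Cd3e, Cd3g and Cd3d had means of at most 2.85 CPM. The part of these cell types in the levels of Pmaip1, Bcl2l11, Bid and Bcl2 was not tested.

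By Pearson correlation of log2(CPM + 1) over the 8 libraries, the 3 genes most like Pmaip1 among 9737 with a mean of at least 8 CPM were Clec2i (r = 0.997), Kmo (0.994) and Mpeg1 (0.992). Mpeg1, which encodes a pore-forming protein of macrophages, averaged 80.7 CPM in CD34bright, 772 in CD41/CD9-negative, 181 in CD48bright and 9.41 in CD48dim cells. The 3 most like Bcl2l11 were 5031439G07Rik (0.975), Myadm (0.957) and Rag2 (0.947). Rag2, a subunit of the recombinase of lymphocytes, averaged 7.81 CPM in CD34bright, 92.7 in CD41/CD9-negative, 4.85 in CD48bright and 0.147 in CD48dim cells. These are descriptions over 8 libraries, which differ in population and in depth. Clec2i, Kmo and Rag2 each overlap a gene on the opposite strand with a similar or larger count, so their levels are uncertain. Among the 10 genes themselves, Pmaip1 and Bid had r = 0.97 and Pmaip1 and Bcl2l11 r = 0.91.

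Of the wider death pathway, edgeR called 0 of 48 tested genes of 5 further lists for any difference, where 2.44% of all tested genes were called. At an unadjusted p below 0.05 by edgeR there were 7 of the 48, against 16.8% of all tested genes. Of the 48, DESeq2 called 6 (Bmf, Cdkn1a, Cycs, Foxo1, Vdac2 and Zmat3) and limma-voom 0. The DESeq2 count is near the share of all tested genes that DESeq2 called, whose number is given below. In the pairs of populations, Cdkn1a was the only gene of these lists called by edgeR, and it is named because of its values. Cdkn1a, which encodes the p53-induced cell cycle inhibitor p21, stood at 45.9 and 47.1 CPM in CD34bright, 101 and 33.7 in CD41/CD9-negative, 31.2 and 33.8 in CD48bright, and 6.46 and 7.70 in CD48dim libraries. Its log2 fold change in CD41/CD9-negative over CD48dim cells was 3.26 ± 0.55 (adjusted p 0.0147, edgeR), and 2.28 (adjusted p 0.108, edgeR) without CD41/CD9-negative replicate 1. DESeq2 called it as well, and limma-voom did not (adjusted p 0.0514). By gene list, 7 of 12 other BCL2 family genes, 16 of 16 genes of the apoptosome, caspases and their inhibitors, 12 of 12 p53 and FOXO genes, 8 of 9 death receptor genes and 5 of 5 genes of MCL1 turnover could be tested. Bcl2a1a, Bcl2a1d, Bcl2l10, Bik, Hrk and Fas did not pass the filter, and the Bcl2a1 genes are near-identical copies that can share reads.

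Other genes of these lists are given by their values, and edgeR called none of them. Bmf, a further BH3-only gene, was at 0.206 and 0.924 CPM in CD34bright, 5.90 and 8.07 in CD41/CD9-negative, 2.86 and 3.93 in CD48bright, and 0.514 and 0.412 in CD48dim libraries. Its log2 fold change in CD41/CD9-negative over CD48dim cells was 3.88 ± 1.16 (adjusted p 0.107, edgeR). Cycs, which encodes the cytochrome c released through the pores, was at 194 and 145 CPM in CD34bright, 128 and 104 in CD41/CD9-negative, 200 and 116 in CD48bright, and 43.8 and 50.0 in CD48dim libraries. Both CD48dim libraries lay below all others, and the adjusted p for any difference was 0.0767 by edgeR. Zmat3, a p53 target, was highest in both CD48dim libraries, at 12.4 and 17.8 CPM in CD34bright, 33.4 and 20.5 in CD41/CD9-negative, 20.2 and 9.60 in CD48bright, and 53.7 and 108 in CD48dim libraries (adjusted p 0.0659 for any difference, edgeR). Bcl2l2, which encodes the pro-survival protein BCL-W, was at 26.8 and 19.7 CPM in CD34bright, 28.6 and 23.1 in CD41/CD9-negative, 25.4 and 15.3 in CD48bright, and 38.2 and 34.9 in CD48dim libraries (adjusted p 0.655 for any difference, edgeR).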

How the data were processed

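RNA of 8 libraries from 4 sorted populations was analysed from per-gene tables. Per the labels' protocols, 5 ng of RNA was amplified by the Ovation RNA-Seq System V2, after which the cDNA (1 ug) was made into libraries with a TruSeq kit, with strand information lost. Per the submitters' processing notes, STAR 2.7.2a, RSEM 1.3.2, edgeR 3.30.3 and mm10 were used. Their settings and the annotation are not stated in the labels. The deposited expected counts, in RSEM's layout per the file headers, need not be whole (1.52% to 2.2% were not, by more than 0.005) and were rounded. The TPM values deposited by the authors were used only within a library, and the deposited lengths in bases only where stated. A second deposited table per library, with identical expected counts of 9918 genes, was not used in tests.

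Counts were tested with edgeR 4.0.16 in R 4.3.3 (quasi-likelihood test, TMM scaling, filterByExpr by population, a mean per population, all 8 libraries, Benjamini-Hochberg adjustment over 13177 genes, called below 0.05). The common coefficient of biological variation was 49.8%, with 4 residual degrees of freedom. SE is the size of the log2 fold change over the square root of F. Groups followed the sort gates, since cluster numbers in titles and design text differ. The 10 genes and all lists were chosen with earlier results of these data known. All 10 were named, as were the genes of other lists that passed the test for any difference and the 3 genes most like each of the 2 with the smallest p. Further genes of these lists were added after their values were seen. Alternatives included DESeq2 1.42.0 and limma 3.58.1. Coordinates are GRCm38 (mm10). The test was checked on simulated counts. The summed level of 1 list of cell type markers is not reported here.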

Additional observations from a re-analysis of the deposited data

How the results depend on the processing

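Of 293 checks of 18 log2 fold changes, 238 kept their direction and side of the threshold, 23 lost the call, 32 gained one and 0 reversed. The members with any difference, 1 in the report, numbered 3 with no filter on low counts, 5 with DESeq2, 2 with the replicate number as a block and 0 without both CD48dim libraries. The genes of the whole table with any difference, 322 in the report, numbered 1607, 1700, 764 and 600 under the same 4 settings. In CD34bright over CD48dim cells, where none was called in the report, 2 members (Bak1 and Pmaip1) were called with no filter, with DESeq2 and with the block. In CD48bright over CD48dim cells 1 member, Pmaip1, was called with no filter and with DESeq2. With the 4 libraries of a pair alone, 2 members (Bcl2l11 and Pmaip1) were called in CD34bright over CD41/CD9-negative cells and 0 in CD41/CD9-negative over CD48dim cells, where the report has 3. In that last pair, limma-voom called 2 (Bcl2 and Pmaip1), library totals only 2 (Bcl2l11 and Pmaip1), and the block, no filter and DESeq2 each 4 (with Bcl2). For these pairs of populations, the number of all genes called under each setting is not given. The member counts in these pairs therefore cannot be set against a share of all genes, and nothing about the members is read from them. Where the cause is not plain from the setting, the cause was not tested.

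Leaving out each library in turn, the members with any difference numbered 0 to 5 and all genes with any difference 32 to 3399. The members called numbered 0 to 3 in CD34bright over CD48dim, 0 to 4 in CD41/CD9-negative over CD48dim and 0 to 2 in CD48bright over CD48dim cells, and 0 in the other pairs. A population left with 1 library was assumed to vary like the others. The genes called in a pair numbered 3 to 772 in CD34bright over CD41/CD9-negative, 0 to 20 in CD34bright over CD48bright, 0 to 3911 in CD34bright over CD48dim, 0 to 435 in CD41/CD9-negative over CD48bright, 81 to 3295 in CD41/CD9-negative over CD48dim and 4 to 3211 in CD48bright over CD48dim cells. In CD41/CD9-negative over CD48dim cells the log2 fold change kept its sign for Pmaip1 (6.36 to 7.19), Bcl2l11 (1.53 to 2.43), Bid (1.21 to 1.63) and Bcl2 (1.42 to 2.10). Scaling by library totals only moved the median gene by -0.10 to -0.15 in pairs with CD34bright.

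What the replicate numbers mark is not stated in the labels. Deviations from the population means correlated across all 6 pairs of populations at 0.16 to 0.31, and replicate 1 had the larger total and the lower Malat1 level in all 4 populations. This is a hint from the data, and not the design, that libraries with the same number may share a source of spread, and the block above takes it into account. With 2 libraries per population, low-count genes such as Bbc3 and CD48dim Pmaip1 are limited by counting error.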
